A study of Mus musculus with 15 samples.

Results

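The 8 genes described here encode regulators of the primitive endoderm, the extraembryonic layer that separates from the epiblast in the blastocyst. They were chosen by their known roles and not by a measured value, out of 22350 protein-coding genes on chromosomes 1 to 19 and X of the GENCODE M1 annotation. Earlier results of these data were known when the choice was made. Gata6, Gata4, Sox17, Sox7, Foxa2 and Hnf4a are transcription factors, Pdgfra is a receptor and Dab2 is an endocytic adaptor. For each gene, the annotated span was extended by 20 kb on each side, and the peaks of 2 histone marks and the bases they cover were read in that window.

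The marks had been profiled by ChIP-seq in 3 states of mouse pluripotent cells, 2 samples for each mark in each state beside an input, which makes 15 samples. Each state and mark had 1 list of broad peaks, which gives 6 lists. Where 3 values stand together, they belong to ESCs, D-EPSCs and L-EPSCs in this order. Embryonic stem cells (ESCs) were J1 cells, a line of strain 129SV, grown in a serum medium (FBS 15%) with LIF and the 2i inhibitors CHIR99021 (3 µM) and PD0325901 (1 µM). D-EPSCs are J1 cells converted to expanded potential stem cells in an N2B27 medium with 5% KSR, LIF, CHIR99021 (3 µM), dimethindene maleate (DiM, 2 µM) and minocycline hydrochloride (MiH, 2 µM). L-EPSCs were converted in a DMEM/F12 medium with 20% KSR, LIF, CHIR99021 (3 µM), PD0325901 (1 µM), A-419259 (0.3 µM), XAV939 (5 µM), JNK inhibitor VIII (4 µM) and SB203580 (10 µM). All 3 media contained LIF at 1000 units/mL. The MEK inhibitor PD0325901 is thus named for ESCs and L-EPSCs and not for D-EPSCs. The labels allow feeder fibroblasts or gelatin for ESCs and L-EPSCs, and per the study's methods EPSCs of both kinds were kept off feeders for several passages before ChIP-seq. All 3 states derive from 1 cell line.

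In the inner cell mass, FGF4 made by epiblast precursors acts through FGF receptors, GRB2 and the MEK and ERK kinases to favour primitive endoderm, and Nanog and Gata6 act against each other in the choice between both fates. Gata6 acts early, and Pdgfra, Sox17, Gata4 and Sox7 follow; Foxa2, Dab2 and Hnf4a belong to the epithelial and visceral endoderm that forms later. H3K4me1 marks enhancers, active or not, and the flanks of promoters, whereas H3K27ac marks the enhancers and promoters that are active.

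The sequences that the H3K27ac and H3K4me1 results turn on follow here on mm9, 5′ to 3′. Capitals mark matches on either strand to 5 motifs. The first is AGATAA, which is bound by zinc-finger factors of the Gata6 family. A further form of it is TGATAA, with the same core. The others were the SOX-type motif ACAATG, the forkhead-type motif TGTTTAC and the octamer-type motif ATGCAAAT. The Hnf4a run covers 250 bases before to 50 bases from the first base of the gene (chr2:163332294-163332593, plus strand), the only promoter of the 8 genes with an H3K27ac peak in any state, and that peak was in ESCs. The run from the Gata4 window is the middle of an H3K27ac region of ESCs only, downstream of the gene and nearer to the start of another gene, Fdft1, than to a start of Gata4 (chr14:63798222-63798521, shown on the plus strand). Close to this region, past the edge of the window, H3K27ac was also listed in both EPSC states. The Sox7 run (chr14:64562261-64562560, plus strand) and the run at an inner start of Dab2 (chr15:6336348-6336647, plus strand) cover the same 300 bases around starts where H3K4me1 was wider in both EPSC states, and were chosen after those values were seen.
Hnf4a start: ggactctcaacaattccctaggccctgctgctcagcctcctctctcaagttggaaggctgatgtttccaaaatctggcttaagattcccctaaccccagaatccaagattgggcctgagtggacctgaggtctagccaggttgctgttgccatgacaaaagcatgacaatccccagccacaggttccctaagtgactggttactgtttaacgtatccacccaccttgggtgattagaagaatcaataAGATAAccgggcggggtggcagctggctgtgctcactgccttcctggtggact
Gata4 window, region near Fdft1: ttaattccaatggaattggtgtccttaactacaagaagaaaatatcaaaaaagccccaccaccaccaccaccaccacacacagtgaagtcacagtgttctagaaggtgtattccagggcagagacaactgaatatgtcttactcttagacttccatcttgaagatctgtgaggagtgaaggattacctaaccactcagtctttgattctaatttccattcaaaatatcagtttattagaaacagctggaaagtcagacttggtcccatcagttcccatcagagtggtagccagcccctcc
Sox7 start: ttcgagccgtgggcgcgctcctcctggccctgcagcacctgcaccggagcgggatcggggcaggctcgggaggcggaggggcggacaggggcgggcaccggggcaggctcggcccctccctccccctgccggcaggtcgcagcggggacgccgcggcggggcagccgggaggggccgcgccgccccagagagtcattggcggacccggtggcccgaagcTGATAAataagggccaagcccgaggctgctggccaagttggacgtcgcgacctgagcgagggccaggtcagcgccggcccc
Dab2 inner start: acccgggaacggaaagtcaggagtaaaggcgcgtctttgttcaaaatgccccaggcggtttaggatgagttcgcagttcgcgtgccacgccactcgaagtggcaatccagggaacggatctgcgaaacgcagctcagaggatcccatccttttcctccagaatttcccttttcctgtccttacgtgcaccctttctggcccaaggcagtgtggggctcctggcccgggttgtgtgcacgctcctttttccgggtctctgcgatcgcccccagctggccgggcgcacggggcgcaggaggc

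The Hnf4a run held AGATAA from position 248, over the first base of the gene, and the Sox7 run held TGATAA from position 220. Of the 300-base runs at the starts of all 22350 genes, 10.3% held AGATAA and 8.25% held TGATAA, so such matches are common. The Gata4 region and the Dab2 run held none of the 5 motifs. Over all genes, 10.6% of these runs held ACAATG, 3.11% TGTTTAC and 1.73% ATGCAAAT. In the middle 300 bases of the 64342 ESC peaks of H3K27ac, the shares were 13.8% for AGATAA, 10.5% for TGATAA, 13.9% for ACAATG, 4.69% for TGTTTAC and 1.54% for ATGCAAAT. The runs differed in base composition, with 34 CpG dinucleotides and 76.3% G or C at the Sox7 start, 23 and 60.7% at the inner Dab2 start, 3 and 52.0% at the Hnf4a start, and 0 and 42.3% in the Gata4 region.

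Before the genes, the lists as a whole have to be set out, since they differ in length. H3K27ac had 64342 peaks over 107.4 Mb in ESCs, 32782 over 44.4 Mb in D-EPSCs and 26966 over 34.3 Mb in L-EPSCs. H3K4me1 had 107222, 102751 and 105306 peaks over 221.1, 187.5 and 173.1 Mb. With 1 list per state and mark there is no replicate spread, and every difference given here compares lists, without a test. Read depth is unknown from peak positions and can change how many bases are covered. All 5 pluripotency genes examined (Pou5f1, Sox2, Nanog, Zfp42 and Klf4) had an H3K27ac promoter peak in every state, and 0 of 11 fibroblast genes had in any state. In the fibroblast windows H3K27ac covered 15.4, 4.83 and 3.40 kb, and 12.7 kb of the ESC value lay at Col1a1. Peak lists come from many cells at a time, so a mark on fewer cells and a weaker mark on every cell cannot be told apart.

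H3K4me1 was present in the windows of all 8 genes in every state, while H3K27ac was listed at 3 of them. In 5 of the 8 windows (Sox17, Sox7, Pdgfra, Foxa2 and Dab2) no H3K27ac peak was listed in any state, against 28.4% of all genes. In the other windows, H3K27ac covered 1.98, 0.423 and 2.13 kb at Gata6, 1.23, 0.744 and 0.896 kb at Gata4, and 9.23, 5.08 and 1.65 kb at Hnf4a. As a share of its window, Hnf4a had more H3K27ac than 68.2%, 75.9% and 63.6% of all genes. Gata6 had more than 49.3%, 42.3% and 74.2% of genes, and Gata4 more than 39.8%, 43.5% and 54.2%. The H3K27ac peaks of the Gata4 window lay nearer to starts of other genes. H3K4me1 covered between 0.409 kb (Dab2) and 20.3 kb (Hnf4a) of a window in ESCs, 2.07 kb (Dab2) to 17.4 kb (Gata4) in D-EPSCs, and 3.16 kb (Dab2) to 14.9 kb (Gata4) in L-EPSCs.

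**Figure D1:**
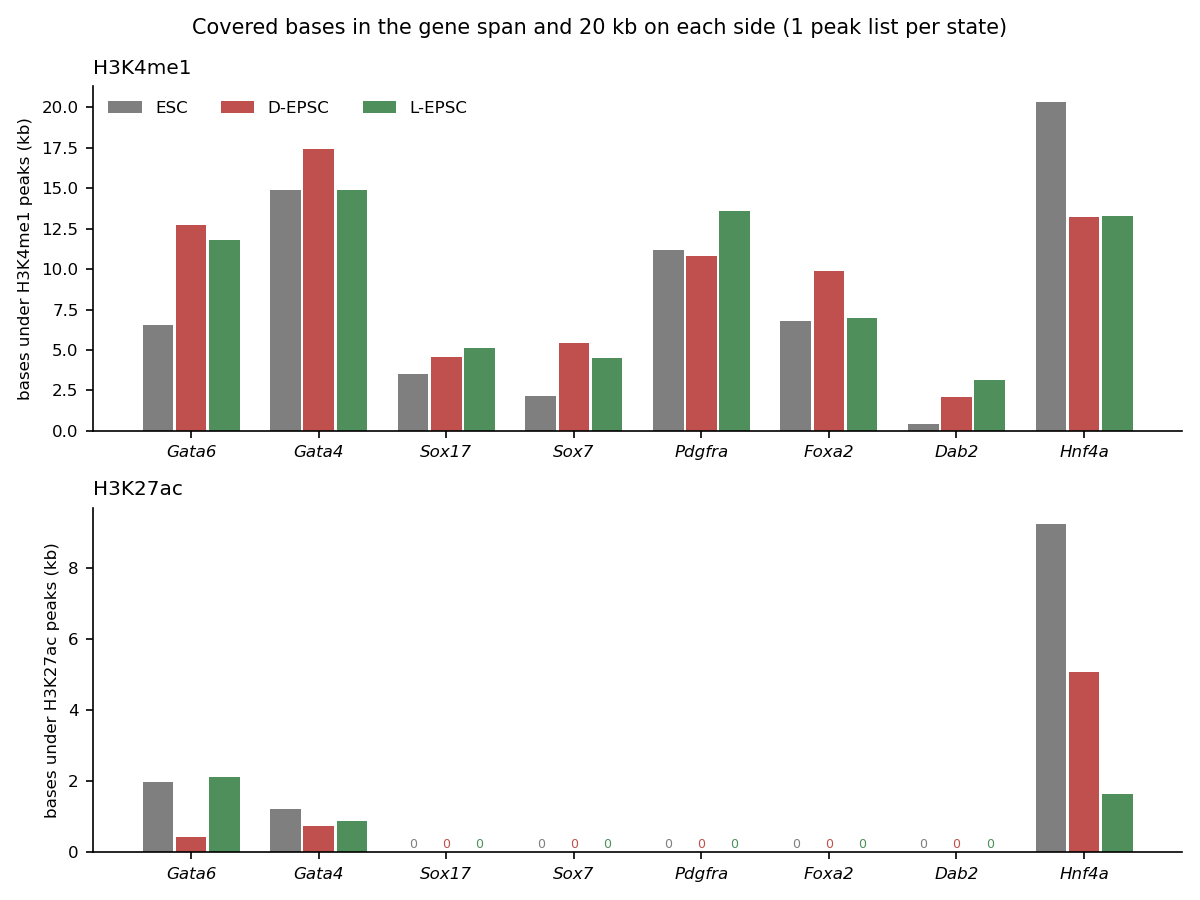
Bases under H3K4me1 peaks (top) and H3K27ac peaks (bottom) in the window of each gene, in kb, for ESCs (grey), D-EPSCs (red) and L-EPSCs (green). Bars are the values of 1 peak list each, with no error. H3K27ac is at 0 in all 3 states for 5 genes, and H3K4me1 is lower in ESCs than in both EPSC states for 6 genes.

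Over the 8 windows together, H3K4me1 covered 65.8 kb in ESCs and more in both EPSC states, at 76.0 and 73.3 kb. The log2 ratio over ESCs was 0.21 in D-EPSCs and 0.16 in L-EPSCs, whereas the whole H3K4me1 lists were at -0.24 and -0.35. Counted as peaks and not as bases, the D-EPSC ratio is -0.17, with 40 peaks in D-EPSCs and 45 in ESCs. Over the genes with at least 1 kb covered in either state, H3K4me1 covered more bases than in ESCs by any amount at 6 of 8 regulators in D-EPSCs, against 39.1% of all genes, and at 7 of 8 in L-EPSCs, against 30.7%. Counted as peaks, these were 2 and 4 of 8, and the share over all genes was not computed for numbers of peaks. Both comparisons use the same ESC list, so the counts do not stand apart from each other. By covered bases, the exceptions were Hnf4a in both states and Pdgfra in D-EPSCs.

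A difference of at least 2-fold was less frequent. H3K4me1 was at least 2-fold higher at Sox7 and Dab2 in D-EPSCs, 2 of 8 against 8.53% of all genes, and at the same genes in L-EPSCs, 2 of 8 against 9.27%. At least 2-fold lower coverage was seen at 0 of 8 in either state, against 4.52% of genes in D-EPSCs and 9.12% in L-EPSCs.

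**Figure D2:**
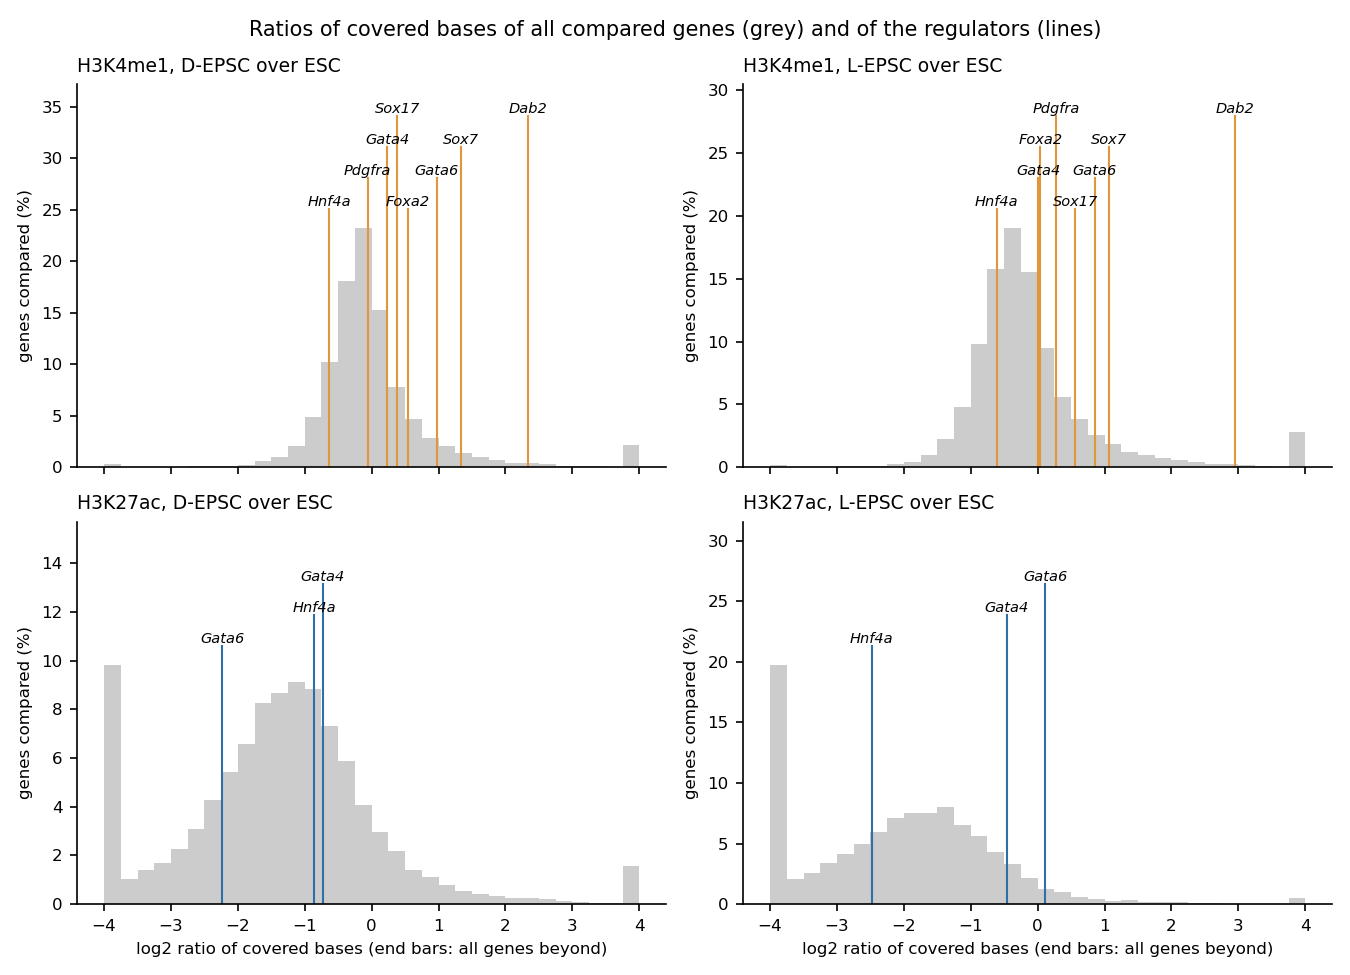
Log2 ratio over ESCs of the covered bases of all genes compared (grey bars, % of genes in steps of log2 ratio) with the regulators as labelled lines, for H3K4me1 (top) and H3K27ac (bottom), D-EPSCs (left) and L-EPSCs (right). For H3K4me1 the median gene lies at -0.12 in D-EPSCs and -0.30 in L-EPSCs, Dab2 lies at 2.34 and 2.95, and Hnf4a at -0.63 and -0.61.

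For H3K27ac, only 3 regulators had enough covered bases to be compared, and at Gata4 all of these lay nearer to starts of other genes. H3K27ac was at least 2-fold lower at 1 of 3 in D-EPSCs (Gata6, 61.6% of all genes) and at 1 of 3 in L-EPSCs (Hnf4a, 79.6% of all genes). It was at least 2-fold higher at 0 of 3 in both, against 4.66% and 1.79% of genes. Hnf4a stood at a log2 ratio of -0.86 in D-EPSCs, and at -1.22, beyond 2-fold, once peaks nearer to another gene were left out. The total over the 8 windows was 12.4, 6.25 and 4.68 kb, a log2 ratio of -0.99 and -1.41 where the whole lists were at -1.27 and -1.65. When only the widest peaks of each list were kept, in the number that the shortest list has, the ratios were -0.32 and -0.74. With all peaks of the windows, the lower H3K27ac coverage in EPSCs was therefore no larger than that of the lists as a whole. Without peaks nearer to another gene the ratios of the windows were -1.39 and -1.33. The D-EPSC difference was then larger than the -1.27 of the whole list, which was not cut in this way.

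At the promoters, H3K4me1 was listed at nearly all of the genes and H3K27ac at few. An H3K4me1 peak within 1 kb of an annotated transcript start was found at 8 of 8 genes in ESCs (62.5% of all genes), 7 of 8 in D-EPSCs (69.7%, Hnf4a had none) and 8 of 8 in L-EPSCs (70.6%). Within 1 kb of the first base of the gene alone, the counts were 6, 5 and 6 of 8. The share over all genes was not computed for the first base alone, so these counts cannot be set against it. An H3K27ac promoter peak was found at 1 of 8 in ESCs (Hnf4a; 39.2% of all genes), 0 of 8 in D-EPSCs (37.9%) and 0 of 8 in L-EPSCs (31.4%). H3K4me1 without H3K27ac at the promoter in all 3 states was the pattern of 7 of 8 regulators, against 19.2% of all genes. The remaining gene was Hnf4a. This pattern was not particular to the regulators. Their paralogues had an H3K4me1 promoter peak at 10 of 10 genes in every state and an H3K27ac one at 1, 1 and 0. The fibroblast genes had H3K4me1 at 8, 8 and 7 of 11 promoters and H3K27ac at 0 in every state.

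**Figure D3:**
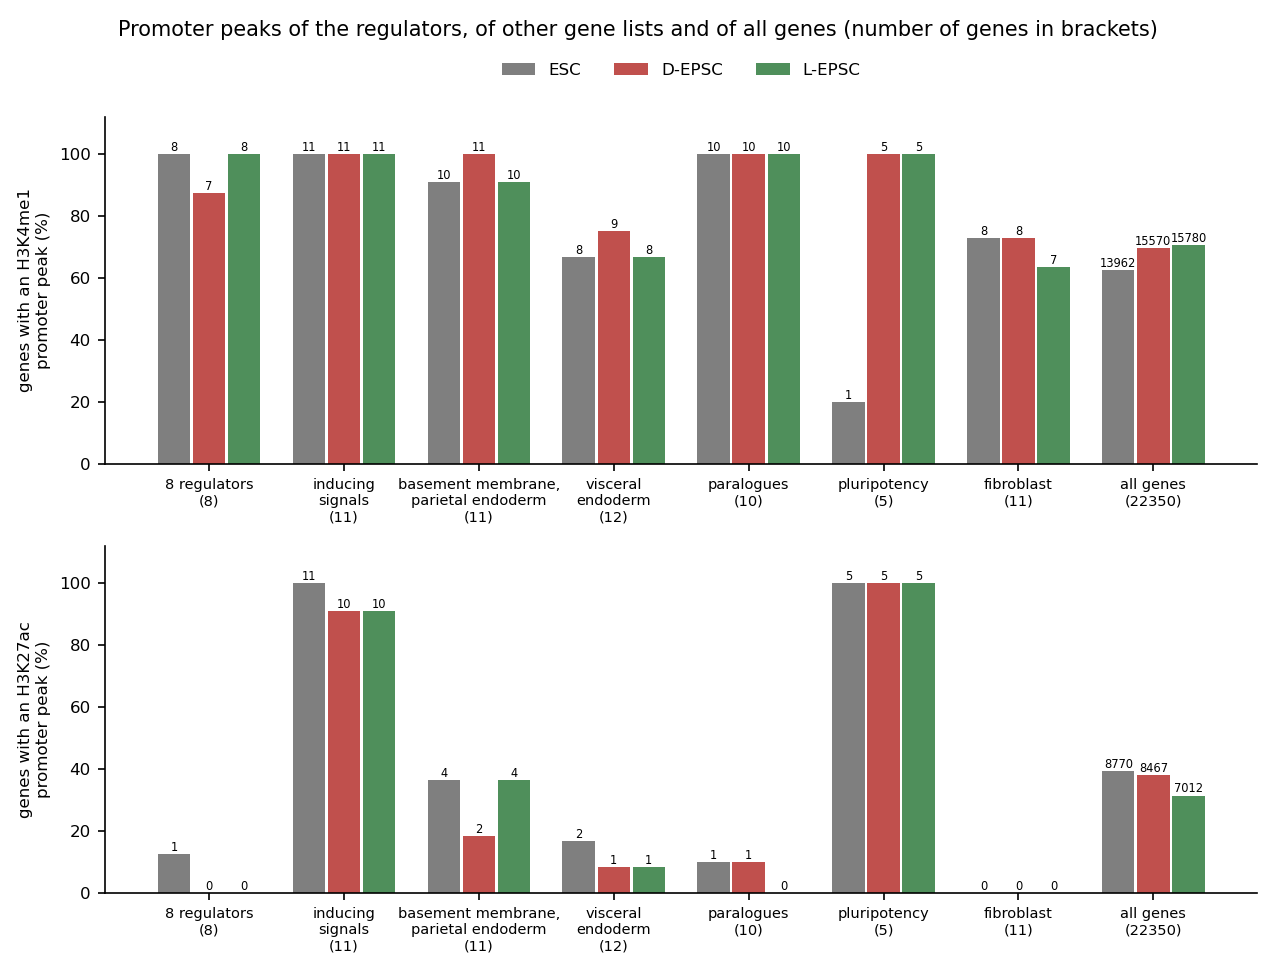
Share of genes with a promoter peak of H3K4me1 (top) and H3K27ac (bottom), in %, for the 8 regulators, 6 other gene lists and all genes, with ESCs in grey, D-EPSCs in red and L-EPSCs in green and the number of genes above each bar. The regulators have H3K4me1 at 8, 7 and 8 promoters and H3K27ac at 1, 0 and 0, whereas the inducing signals have H3K27ac at 11, 10 and 10 of 11.

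At the first base, H3K4me1 is often missing even where it flanks the promoter. Over all genes the first base lay under an H3K4me1 peak in 11.4%, 26.2% and 31.8%. Among the regulators the counts were 5 of 8 in ESCs (Sox17, Sox7, Pdgfra, Foxa2 and Hnf4a), 5 of 8 in D-EPSCs (Gata6, Sox17, Sox7, Pdgfra and Foxa2) and 4 of 8 in L-EPSCs (Gata6, Sox7, Foxa2 and Hnf4a). The count of regulators thus did not follow the increase over all genes, but its members differed between states, and the peaks that covered the starts differed in width.

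**Figure D4:**
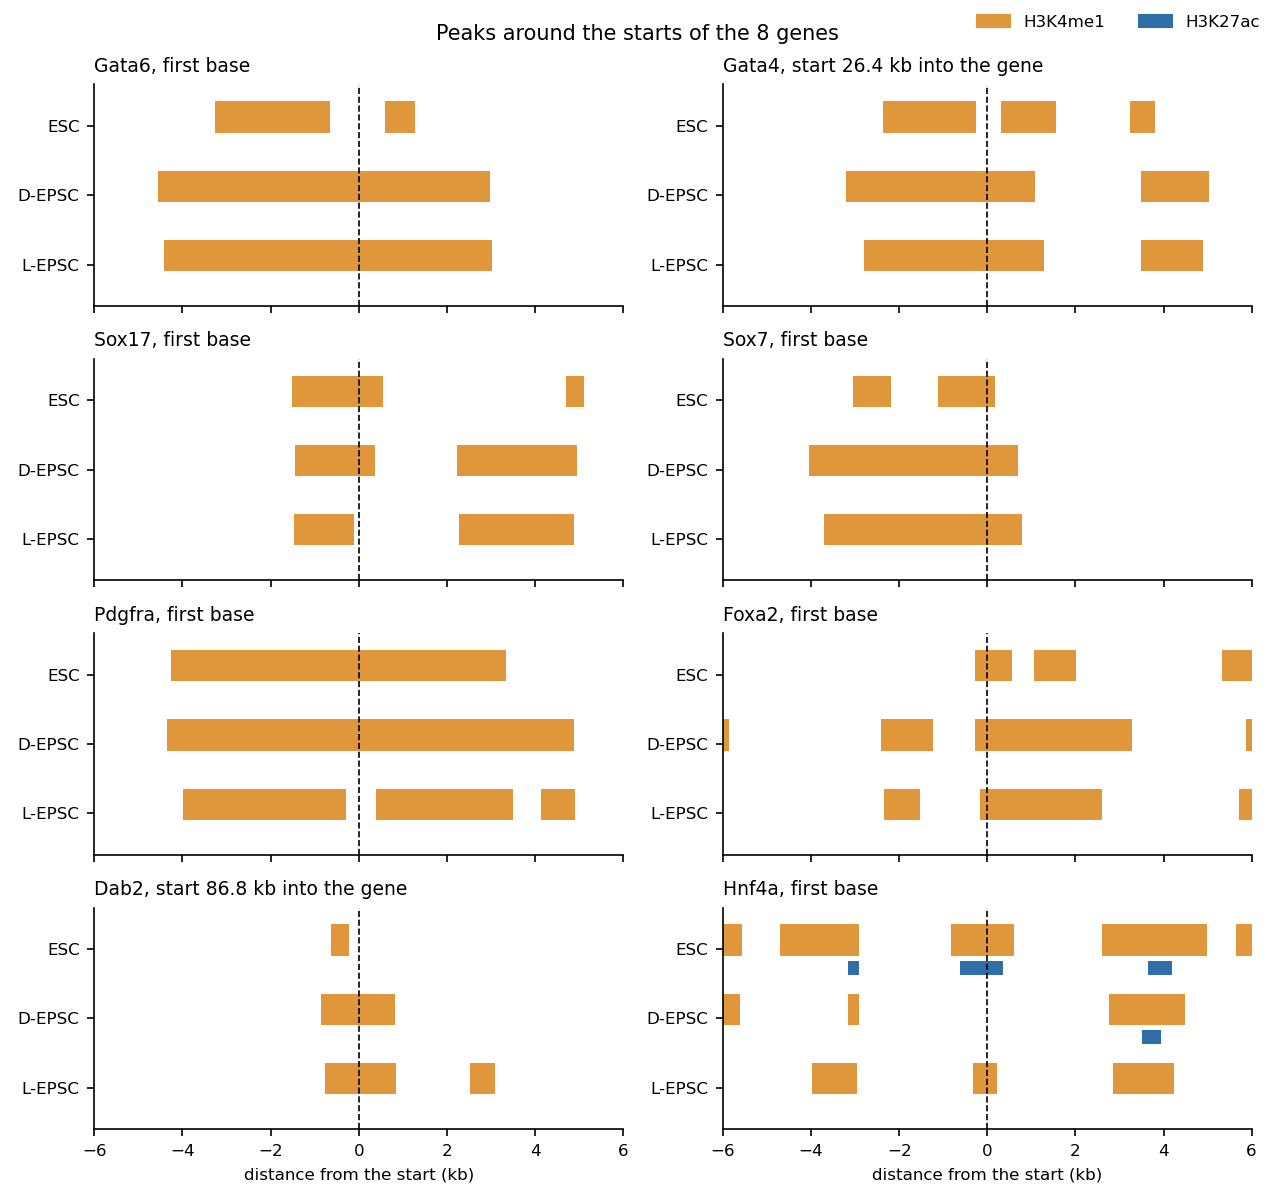
Peaks within 6 kb of a start of each gene, for ESCs, D-EPSCs and L-EPSCs from top to bottom in each panel, with H3K4me1 in orange and H3K27ac in blue below it. The x axis is the distance from the start (dashed line) in kb, which is the first base of the gene except for Gata4 and Dab2, where it is an inner start at 26.4 and 86.8 kb. The ESC gap over the Gata6 start and the inner Gata4 start is closed in both EPSC states, and the Hnf4a promoter has an H3K27ac peak in ESCs alone.

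Gata6, a zinc-finger factor that acts early in this lineage, spans 33.1 kb on chromosome 18 (11052508 to 11085633, plus strand) and has 1 annotated start. In ESCs 2 H3K4me1 peaks of 2610 and 687 bp flanked the start, and the bases from -0.648 to 0.594 kb were in neither (negative positions lie before the first base). In D-EPSCs 1 peak of 7532 bp and in L-EPSCs 1 peak of 7439 bp ran across the start, from -4.56 to 2.97 kb and from -4.41 to 3.03 kb. The H3K4me1 total of the window was 6.52, 12.7 and 11.8 kb, a log2 ratio of 0.97 and 0.85, which is higher than that of 91.2% and 89.4% of all genes compared. Another H3K4me1 region of 1032 and 813 bp at 6.06 to 7.09 kb over an exon and a region of 900 and 641 bp downstream of the gene at 44.2 to 45.2 kb, were listed in both EPSC states and not in ESCs. The EPSC profiles were more like each other than like ESCs, as the shared H3K4me1 bases were 0.868 of the bases covered in either EPSC list, and 0.477 and 0.475 when ESCs were set against D-EPSCs and L-EPSCs.

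The H3K27ac of the Gata6 window lay upstream, between -13.9 and -11.1 kb, in 2 stretches that overlapped an H3K4me1 peak present in all 3 states (2925, 3256 and 2585 bp). The stretch farther from the gene had 925, 0 and 1012 bp. The nearer stretch had 1053, 423 and 1119 bp. ESC and L-EPSC coverage thus lay close together and D-EPSC coverage was lower, 4.68-fold below ESCs, at a log2 ratio of -2.23, and 24.0% of genes had a lower ratio. The L-EPSC ratio was 0.11, and 95.7% of genes had a lower ratio. In a window of 50 kb on each side the L-EPSC ratio was -0.25, so its direction depends on the window. With lists of equal length, which keep only the widest peaks of each list, both ESC peaks dropped out and the narrower D-EPSC peak stayed. Gata6 then had more H3K27ac in D-EPSCs than in ESCs, so the D-EPSC direction depends on list length.

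Gata4, its paralogue, spans 72.8 kb on chromosome 14 (63817759 to 63890529, minus strand) with 6 annotated starts. No H3K4me1 peak lay within 1 kb of the first base in any state, and the promoter peaks were at the starts 26.4 kb into the gene. There ESCs had 2 peaks, of 2129 and 1264 bp, with the start between them, and D-EPSCs and L-EPSCs each had 1 peak over the start, of 4287 and 4074 bp. The window total was 14.9, 17.4 and 14.9 kb, and 9 of its 13 H3K4me1 regions were common to the 3 states. Around the first base alone (20 kb on each side) the log2 ratios were larger, at 1.35 and 0.92 in place of 0.23 and 0.01, where regions 1.79 to 16.6 kb into the gene had more bases under H3K4me1 in EPSCs. The wide ESC peak of 2618 bp at 33.5 to 36.1 kb was 945 and 756 bp in D-EPSCs and L-EPSCs.

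The H3K27ac of the Gata4 window lay past the end of the gene and, within the window, differed in place between states. ESCs had 1 region of 1240 bp at 91.5 to 92.8 kb, at the edge of the window, and the sequence given for this window is its middle. This region lay nearer to the start of Fdft1 than to a start of Gata4, and the EPSC peaks of H3K4me1 that overlapped it lay at the Fdft1 start. D-EPSCs and L-EPSCs had 1 peak each, of 744 and 896 bp at 77.9 to 78.6 and 77.9 to 78.8 kb, at a start of the neighbouring gene Neil2. Within the window, no H3K27ac base of ESCs was shared with either EPSC list, and the bases shared by both EPSC lists were 0.824 of those covered in either. No H3K27ac peak lay within the Gata4 gene in any state.

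The SOX factors of this lineage showed H3K4me1 without acetylation. Sox17 spans 5.49 kb on chromosome 1 (4481009 to 4486494, minus strand), and its promoter peak was 2066, 1824 and 1359 bp wide. A region over the body of the gene, between 2.22 and 5.12 kb, had 428, 2723 and 2624 bp. The promoter was thus covered most in ESCs and the gene body most in EPSCs, and the window totals were 3.49, 4.55 and 5.14 kb. The nearest H3K27ac peak to its first base was 95.7, 164 and 163 kb away.

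Sox7 spans 7.06 kb on chromosome 14 (64562511 to 64569569, plus strand), on the same chromosome as Gata4. The H3K4me1 peak over its first base was 1286 bp wide in ESCs and far wider in EPSCs, at 4737 and 4476 bp. In EPSCs this peak also took in the bases of a separate ESC peak of 868 bp, at -3.05 to -2.18 kb. The window totals were 2.15, 5.43 and 4.48 kb, 2.52-fold and 2.08-fold higher than in ESCs, and all 2154 bases of ESCs lay within the EPSC peaks. In L-EPSCs the window held 1 peak where ESCs held 2, so a count of peaks gives a log2 ratio of -1.0 in place of 1.06. The start of Sox7 is rich in CpG: the observed over expected CpG ratio of the 1000 bases around it was 0.77, above that of 75.0% of all genes.

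Foxa2, a forkhead factor that opens chromatin in endoderm, spans 4.09 kb on chromosome 2 (147868613 to 147872705, minus strand). The peak over its first base was 840, 3567 and 2782 bp wide, and in EPSCs it took in another ESC promoter peak of 955 bp. A region upstream, at -2.41 to -1.23 kb, had 1184 and 814 bp in the EPSC states and was not listed in ESCs. Downstream of the gene, at 5.33 to 8.95 kb, the 3 states had 2875, 2827 and 2627 bp. The window totals were 6.77, 9.86 and 6.95 kb, so that L-EPSCs exceeded ESCs by 0.184 kb only, and this sign turned with peaks of at least 500 bp (-0.01). The nearest H3K27ac peak lay 625 kb from the first base in ESCs and D-EPSCs and 626 kb in L-EPSCs, the longest such distances of the 8 genes.

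Hnf4a, a nuclear receptor of the visceral endoderm and liver, spans 66.1 kb on chromosome 2 (163332544 to 163398646, plus strand) and was the most acetylated regulator in ESCs and D-EPSCs. The window held 7, 3 and 2 H3K27ac peaks. The promoter peak of ESCs, 979 bp from -0.628 to 0.350 kb, was absent from both EPSC lists. With lists cut to equal length or to equal covered bases it was absent from ESCs too, where 0 of 8 regulators then had an H3K27ac promoter peak. H3K4me1 at this start was 1453, 0 and 556 bp. The widest region lay in an intron, at 7.54 to 12.2 kb, where H3K27ac covered 4664, 2552 and 1425 bp, and H3K4me1 was present in all 3.

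Besides these, 3 distal H3K27ac regions of Hnf4a were in ESCs only, of 259, 482 and 361 bp. An intron region at 3.51 to 4.20 kb had 560 bp in ESCs and 422 bp in D-EPSCs and none in L-EPSCs. A further region at -14.6 to -12.3 kb, over the start of the neighbouring gene R3hdml, had 1926, 2108 and 229 bp. The window total in L-EPSCs was 5.58-fold below ESCs at a log2 ratio of -2.48, and 37.3% of genes had a lower ratio. In D-EPSCs the ratio was -0.86. With lists of equal covered bases H3K27ac was instead higher in L-EPSCs than in ESCs at all 3 regulators that had it, Hnf4a included. With 50 kb on each side the ratios of D-EPSCs and L-EPSCs were -0.20 and -0.66. With 10 kb, or without peaks nearer to another gene, they were -1.22 and -2.28. H3K4me1 was also lower, with 20.3 kb in ESCs against 13.2 and 13.3 kb, at ratios of -0.63 and -0.61 that only 13.4% and 27.2% of genes lay below. Hnf4a was the only regulator with less H3K4me1 than ESCs in both EPSC states.

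Pdgfra, the PDGF receptor carried by primitive endoderm cells, spans 45.9 kb on chromosome 5 (75548316 to 75594229, plus strand) and had the widest H3K4me1 peaks of the 8 genes in ESCs and D-EPSCs. A peak of 7616 bp in ESCs and 9245 bp in D-EPSCs ran across the first base. In L-EPSCs the same stretch was split into 3 peaks, of 3697, 3112 and 765 bp, with the first base in a gap from -0.292 to 0.392 kb. The window totals were 11.2, 10.8 and 13.6 kb, and the higher L-EPSC value came from regions outside the promoter, among them 2235 bp at 52.9 to 55.1 kb downstream of the gene and 1190 bp at 41.8 to 43.0 kb over an exon. D-EPSCs differed from ESCs by -0.446 kb and L-EPSCs by 2.36 kb. Both signs depended on the window, with log2 ratios of 0.24 in D-EPSCs at 10 kb on each side and -0.20 in L-EPSCs at 50 kb. The nearest H3K27ac peak lay 30.3, 107 and 65.4 kb from the first base.

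Dab2, an adaptor that sorts cargo in endoderm epithelium, spans 141 kb on chromosome 15 (6249788 to 6390712, plus strand) in its longer annotation entry, which was used, and has 13 annotated starts. It carried the least H3K4me1 of the 8 genes. The nearest H3K4me1 peak to the first base lay 61.0, 39.4 and 39.0 kb away, and the promoter peaks were at the inner starts. At 86.2 to 86.6 kb ESCs had 409 bp, all of the H3K4me1 of the window, and these ended before the start at 86.8 kb. D-EPSCs had 1675 bp and L-EPSCs 1618 bp there, across that start. The window totals were 0.409, 2.07 and 3.16 kb, 5.06-fold and 7.72-fold higher than in ESCs, with a region in an intron at 132 kb that had 396 and 718 bp in the EPSC states and was not listed in ESCs. Since the ESC value is a narrow peak, the ratio is large on few bases. The CpG ratio was 0.12 at the first base, above that of 9.67% of genes, and 0.83 at the inner start, above that of 83.7%.

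**Figure D5:**
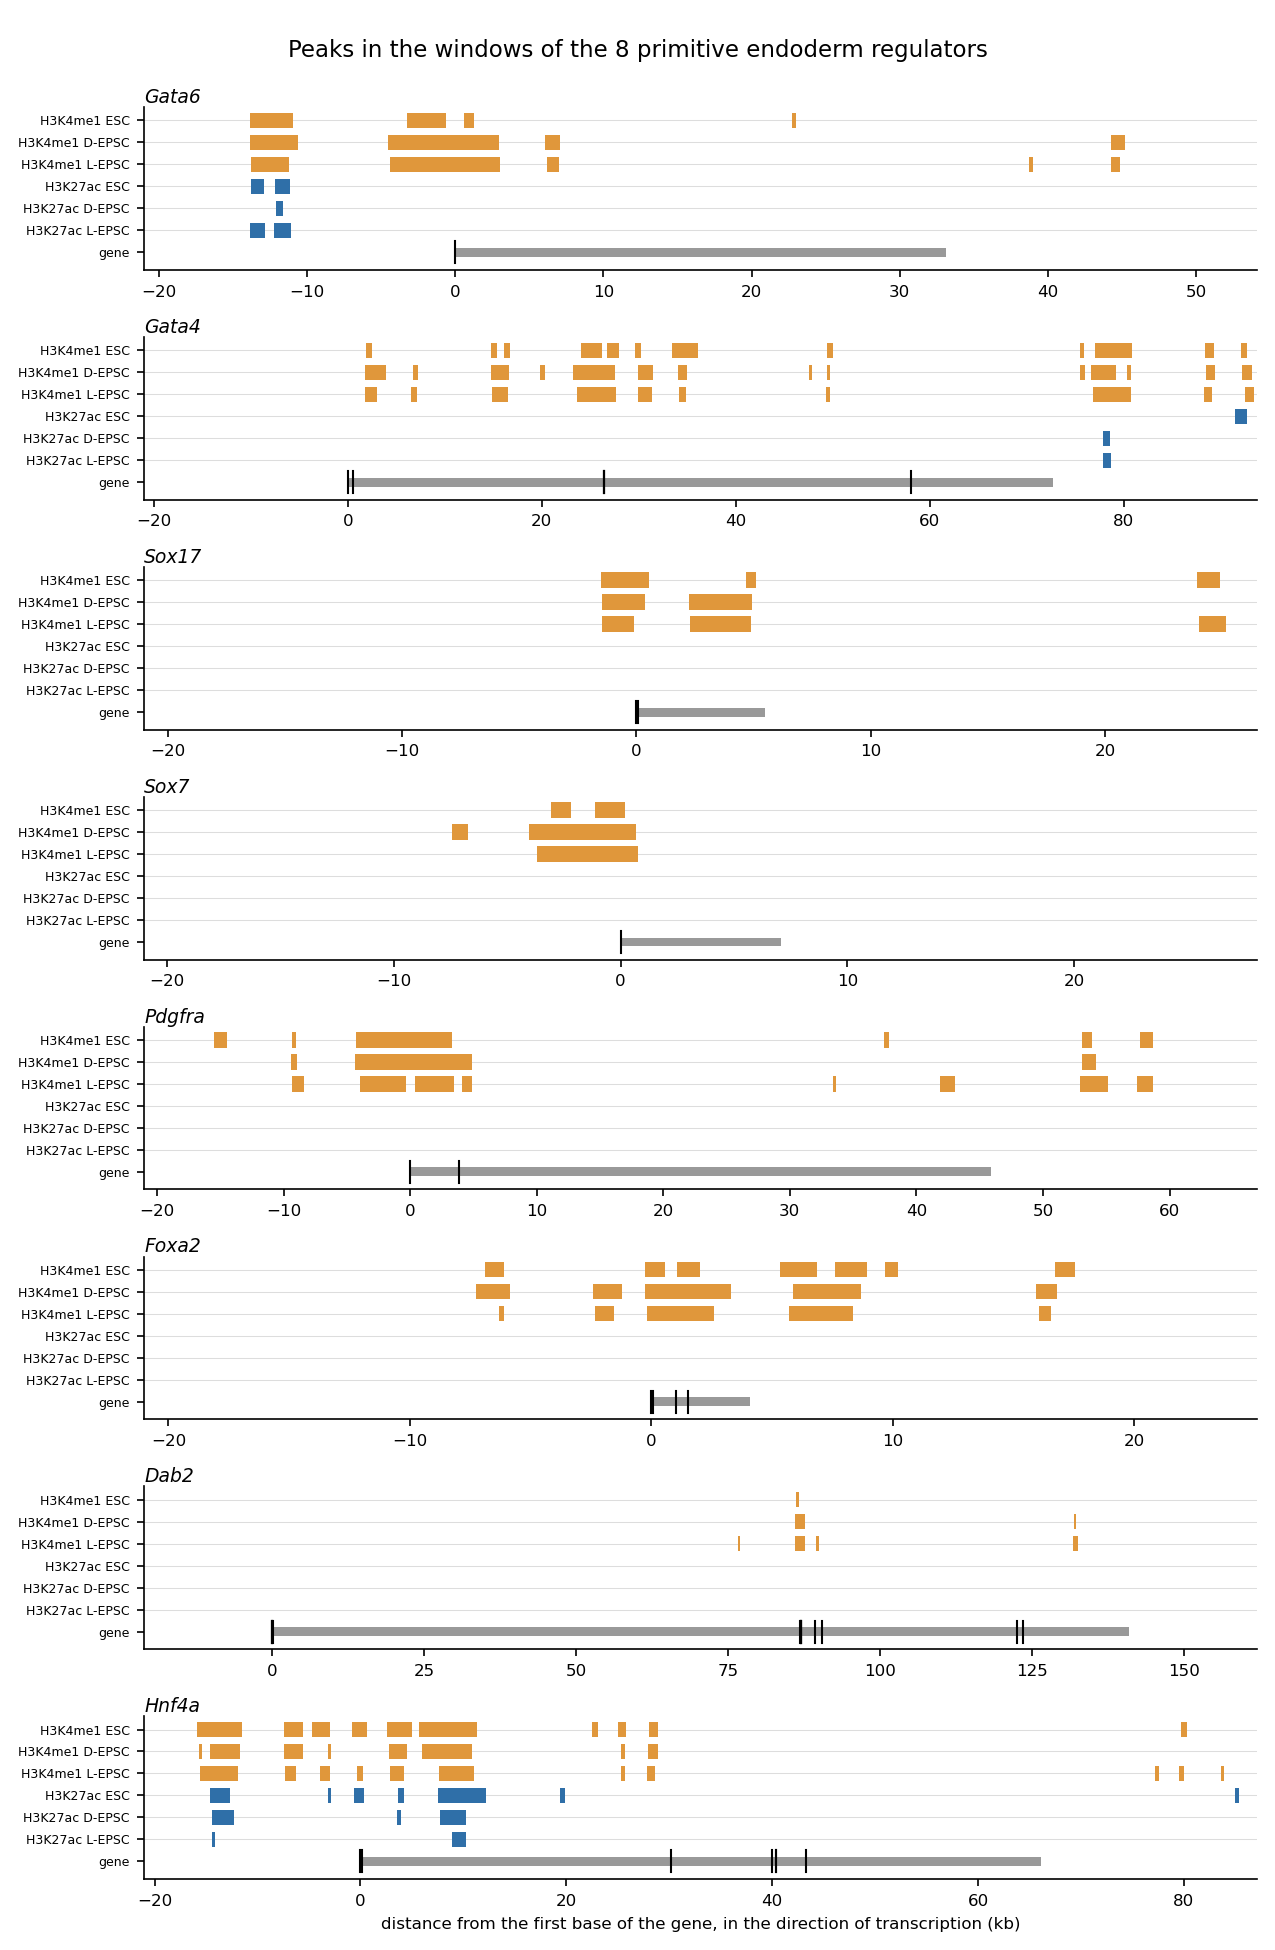
Peaks in the window of each gene against the distance from its first base in kb, in the direction of transcription, with H3K4me1 in orange, H3K27ac in blue, the gene as a grey bar and annotated starts as black ticks. Each panel has its own x scale. The H3K27ac peaks lie upstream of Gata6, downstream of Gata4 and along Hnf4a, and the other 5 windows have none.

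Across the starts that carried H3K4me1, the CpG ratio varied as well. It was 0.66 at Gata6 and at the inner start of Gata4, 0.77 at Sox7, 0.57 at Foxa2 and 0.83 at the inner start of Dab2, where the EPSC peaks were wider over the start. It was 0.42 at Pdgfra, 0.41 at Sox17 and 0.22 at Hnf4a, where they were not wider in both states. The median over all genes was 0.55. This grouping was made after the widths were seen and is a description of 8 genes.

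Taken by region, the windows held 54 H3K4me1 regions and 11 H3K27ac regions when the peaks of the 3 states were joined. Of the H3K4me1 regions, 29 of 54 were common to all 3 states (52.7% of all such regions), 5 were in ESCs only (14.5%) and 5 in both EPSC states without ESCs (7.27%). All 5 of the latter were distal, at Gata6 (2), Gata4, Foxa2 and Dab2. Of the H3K27ac regions, 3 of 11 were common to all states (21.3% of all such regions), 5 were in ESCs only (53.6%) and 1 was in both EPSC states without ESCs (2.35%), the peak at the Neil2 start. Among the H3K4me1 peaks of the windows, 7 of 45 in ESCs, 6 of 40 in D-EPSCs and 5 of 47 in L-EPSCs overlapped H3K27ac, which is 15.6%, 15.0% and 10.6%, where 39.4%, 22.2% and 17.9% of all H3K4me1 peaks did. The share in these windows was below that of the whole list in each state, and the gap was widest in ESCs. The overlapping peaks lay only in the windows of Gata6, Gata4 and Hnf4a, and most of those of ESCs were at Hnf4a. Some of them lay at starts of the neighbouring genes R3hdml, Neil2 and Fdft1.

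The genes around this set in the pathway were read in the same way. The FGF and ERK signal that induces the lineage (11 genes, Fgf4 to Pdgfa) was acetylated in every state, with an H3K27ac promoter peak at 11, 10 and 10 of 11 genes in ESCs, D-EPSCs and L-EPSCs. In both EPSC states 10 of 11 had at least 2-fold lower H3K27ac coverage, with Fgf4 as the exception (31.3, 19.4 and 16.2 kb), against 61.6% and 79.6% of all genes. The largest differences were in the windows of Fgfr2 and Grb2. Fgfr2, a receptor for FGF, had 223, 59.7 and 57.0 kb in an unusually long annotated span, which can hold peaks of other genes. Grb2, the adaptor between receptor and RAS, had 47.6, 9.03 and 3.41 kb. None of the 11 genes (0 of 11) had more H3K4me1 in an EPSC state than in ESCs, against 39.1% and 30.7% of all genes.

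The basement membrane and parietal endoderm genes (11), products of the endoderm once formed, had an H3K27ac promoter peak at 4, 2 and 4 genes. H3K27ac was at least 2-fold lower at 6 of 6 compared in D-EPSCs (61.6% of all genes) and at 6 of 8 in L-EPSCs (79.6%), with the largest differences at Lamc1, a laminin chain (59.8, 4.95 and 4.40 kb), and Nid1, a laminin-binding nidogen (23.4, 1.44 and 3.81 kb). The neighbours Col4a1 and Col4a2, collagen IV chains that share a promoter region, were at least 2-fold higher in L-EPSCs, with 0.724, 0.519 and 4.03 kb and 0, 0 and 3.54 kb. H3K4me1 was higher by any amount at 5 of 11 genes in D-EPSCs (39.1% of all genes) and 6 of 11 in L-EPSCs (30.7%).

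The visceral endoderm genes (12) had an H3K27ac promoter peak at 2, 1 and 1 genes, and at Apoe in each state. H3K27ac was at least 2-fold lower at 5 of 7 compared in both EPSC states, where 61.6% and 79.6% of all genes were. Apoe, a lipoprotein, had 22.3, 9.31 and 8.14 kb, Ttr, a thyroxine carrier, had 2.98, 0 and 0 kb, and Cubn, an endocytic receptor, had 4.50, 4.31 and 0.976 kb. Higher values than in ESCs were found at Lrp2, the receptor megalin that Dab2 binds, with 2.22, 6.11 and 4.21 kb, and, at a lower level, Lhx1, a LIM homeobox factor (0.301, 0.824 and 0.673 kb). H3K4me1 at Lrp2 was also higher, with 14.5, 31.7 and 31.0 kb.

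Among the paralogues of the regulators (10 genes), H3K4me1 was found at the promoter of 10 of 10 in every state and H3K27ac at 1, 1 and 0. The largest H3K27ac differences were at Gata1 (9.01, 1.57 and 0 kb) and Foxa3 (3.04, 0.639 and 0 kb), and slightly higher D-EPSC values at Hnf4g (8.77, 9.07 and 5.99 kb) and Gata3 (0.795, 1.05 and 0.501 kb). H3K4me1 was higher than in ESCs by any amount at 5 of 10 in D-EPSCs (39.1% of all genes) and 4 of 10 in L-EPSCs (30.7%). Of the pluripotency genes it was higher at 4 of 5 and 3 of 5, and of the fibroblast genes at 5 of 9 and 5 of 9 compared, where the regulators had 6 of 8 and 7 of 8.

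For the 3 regulators with H3K27ac in their window, similar genes were sought by the mean absolute difference of the covered share over the 6 lists. The closest were Rab3il1 and Rpl36a for Gata6 (0.554 and 0.865 percentage points), BC048355 and Nadsyn1 for Gata4 (0.397 and 0.468) and Ankrd36 and Plscr1 for Hnf4a (0.636 and 0.754). Gata6 covered 2.70% of its window with H3K27ac in ESCs, and 0.578% and 2.91% in the EPSC states, and Rab3il1 2.33%, 1.87% and 3.01%.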

How the data were processed

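The authors performed ChIP-seq for H3K4me1 and H3K27ac on 2 samples for each mark in each state, beside an input. Per the labels and the study's methods, paired-end reads were aligned to mm9 with Bowtie2 2.3.5, handled with SAMtools 1.10, and broad peaks were called with MACS against input. What was deposited is 1 list of peaks for each mark in each state, with chromosome, start, end and name. Thresholds, and whether the samples were pooled before calling, are not given in the sources used here. Read depth is unknown, and depth and threshold both affect the covered bases.

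Genes and starts were taken from GENCODE M1 (NCBIM37, which is mm9), and 0 peaks passed a chromosome end. Covered bases were summed in the gene span and 20 kb on each side. A promoter peak overlapped an annotated start of the gene widened by 1 kb, a peak at the start of another gene was called a neighbour's promoter peak, and the rest were distal. A window was compared where either state covered at least 1 kb, and counted at 2-fold. Percentages over all genes use the same rules. Regions are the joined overlapping or touching peaks of the 3 states. With 1 list per group no test was run. The CpG ratio is the observed over expected CpG count in 1000 bases around a start. Sequences were read from the NCBIM37 genome. Coordinates are 1-based.

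All 8 regulators are named. From the other lists, the 2 genes with the largest H3K27ac difference in each direction are named. For regulators with H3K27ac in their window, the 2 genes with the most similar covered shares are named. A result that this rule would name is not reported here. Genes with values given outside this rule (Fgf4, and the fibroblast gene Col1a1) were chosen after their values were seen, as were the printed Sox7 and Dab2 sequences. The printed Hnf4a and Gata4 sequences follow a rule for H3K27ac regions that differ between states, and for distal regions of EPSCs without ESCs it found 0. The regulators and the gene lists were chosen with earlier results of these data known. The interval code was tested on simulated data, with 0 of 900 windows wrong. Python 3.11.15, numpy 2.4.6 and matplotlib 3.10.9 were used.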

Additional observations from a re-analysis of the deposited data

Results flagged for a closer look

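At 2 regulators the EPSC states lay on opposite sides of ESCs. H3K27ac at Gata6 differed from ESCs by -1.55 kb in D-EPSCs and by 0.153 kb in L-EPSCs. H3K4me1 at Pdgfra differed from ESCs by -0.446 kb in D-EPSCs and by 2.36 kb in L-EPSCs. With 1 peak list per state, neither difference between the EPSC states was tested, and both compare with the same ESC list. Neither held under every alternative. The Gata6 log2 ratio of L-EPSCs was -0.25 with 50 kb on each side. With lists of equal length 1 regulator had more H3K27ac in D-EPSCs than in ESCs. Gata4 (-0.73) and Hnf4a (-0.37) stayed lower there, so this regulator was Gata6, whose ESC peaks dropped out in that cut. For Pdgfra the sign turned in D-EPSCs under 4 alternatives, at 0.10 to 0.44, and in L-EPSCs under 2, at -0.20 and -0.08. The D-EPSC value of Gata6 rests on a peak of 423 bp in place of 2 peaks, of 925 and 1053 bp, in ESCs. The stretch stayed under H3K4me1 in D-EPSCs.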

How the results depend on the processing

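Of 130 alternative values for the counts and totals over the 8 genes, 104 stayed close to the reported value and in direction, 25 moved and 1 reversed. Counting peaks in place of covered bases, the H3K4me1 log2 ratio of D-EPSCs over ESCs was -0.17, and more H3K4me1 than in ESCs was found at 2 genes in D-EPSCs and 4 in L-EPSCs, while more H3K27ac in L-EPSCs was found at 0. With lists cut to the same number of peaks, the ratios of H3K27ac were -0.32 and -0.74, more H3K27ac in D-EPSCs was found at 1 gene, the ESC promoter peak of H3K27ac at 0 genes, and distal H3K27ac regions numbered 1 in all states, 1 in ESCs alone and 1 in the EPSC states alone. With lists of equal covered bases the H3K4me1 ratio of L-EPSCs was 0.82, more H3K27ac was found at 1 gene in D-EPSCs and 3 in L-EPSCs, promoter peaks in ESCs at 0 genes for H3K27ac and 4 for H3K4me1, and distal regions numbered 0, 0 and 1 for H3K27ac and 6, 0 and 12 for H3K4me1. Peaks of at least 500 bp left 1 distal H3K27ac region in all states and 2 in ESCs only. Windows of 10 kb gave more H3K27ac in D-EPSCs at 1 gene, and windows of 50 kb more in L-EPSCs at 0. The cause of these changes was not tested.

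For the values of each gene, 128 of 169 alternatives stayed close, 25 moved and 16 reversed. Alternatives that left a state with 0 bases gave no ratio and are not in this count. Among those, H3K27ac turned higher than in ESCs at Gata6 in D-EPSCs with lists of equal length. It also did so at Gata4 and Hnf4a in L-EPSCs with lists of equal covered bases. Numbers of peaks reversed H3K4me1 at Sox17 (-0.58) and Foxa2 (-0.49) in D-EPSCs, and at Gata4 (-0.26), Sox7 (-1.0), Foxa2 (-0.49) and Hnf4a (0.14) in L-EPSCs. Pdgfra reversed in D-EPSCs at 10 kb (0.24), around the first base (0.10), with the widest 50% (0.28) and with equal covered bases (0.44), and in L-EPSCs at 50 kb (-0.20) and around the first base (-0.08). At 50 kb Gata4 H3K4me1 (-0.09) and Gata6 H3K27ac (-0.25) reversed in L-EPSCs, and Foxa2 H3K4me1 in L-EPSCs was -0.01 both with peaks of at least 500 bp and with lists of equal length. H3K4me1 at Dab2, and at Gata6 apart from numbers of peaks in D-EPSCs (0.00), was higher in both EPSC states under every alternative that gave a ratio.

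No paired analysis was possible because each state and mark has 1 peak list. Leaving out a sample was not possible for the same reason. H3K27ac lists are short in EPSCs, so an absent peak means that none was called, not that the mark is absent.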
